A study of Mus musculus with 6 samples.

Results

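The messenger RNAs of 9 chemokine system genes were followed in single cells of mouse kidney: the CXC chemokines Cxcl1, Cxcl2, Cxcl9, Cxcl10, Cxcl12 and Cxcl16, the CX3C chemokine Cx3cl1, and the chemokine receptors Cxcr4 and Cxcr6. They were chosen by symbol among the 33696 genes counted, and all 9 were found. Kidneys came from 3 sham mice and 3 DOCA-salt mice, all male C57BL/6 animals aged 8 to 10 weeks when bought, and each mouse gave 1 scRNA-seq library made with 10x Genomics 3′ chemistry. The DOCA-salt mice had lost the left kidney and, 1 week later, received a subcutaneous pellet with 50 mg of deoxycorticosterone acetate (DOCA), a mineralocorticoid, and drank water with 1% NaCl for 21 days. The sham mice had sham surgery, drank normal water and had no pellet. The DOCA pellet, the salt and the kind of surgery therefore always went together, and their parts cannot be told apart.

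Chemokines are small secreted proteins that guide leukocytes through G protein-coupled receptors. Cxcl1 and Cxcl2 attract neutrophils through Cxcr2, whereas Cxcl9 and Cxcl10 are induced by interferons and attract T cells and NK cells through Cxcr3. Cxcl12 binds Cxcr4 and holds and guides leukocytes and progenitors, and Cxcl16 and Cx3cl1 are made as membrane-bound proteins that metalloproteases can shed, with Cxcr6 and Cx3cr1 as their receptors. In kidney disease, injured tubular cells and infiltrating macrophages are known sources of the inflammatory members, whereas Cx3cl1 is known from endothelium and epithelium.

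In the GENCODE annotation of GRCm39, Cxcl1 (chr5:91039094-91040974, plus strand) and Cxcl2 (chr5:91051730-91053797, plus strand) are neighbours in 1 chemokine cluster. Cxcl9 (chr5:92469206-92475945) and Cxcl10 (chr5:92494497-92496748) lie on the minus strand of the same chromosome. Cxcl10 lies within Art3, Cxcl16 (chr11:70344517-70352620, minus strand) overlaps Med11 and Zmynd15, and Cxcr6 (chr9:123635534-123640825, plus strand) overlaps Fyco1, each on the opposite strand, and reads of such pairs are separated only if the counting used strand. Whether it did is not given in the sources used here.

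The bases just upstream of 3 members known to be induced by inflammatory signals are shown: Cxcl2 and Cxcl10, which changed in tubular cells below, and Cxcl1, the neighbour of Cxcl2, which passed the test in no cell type. Each run is 250 bases that end before the transcription start, from RefSeq on GRCm38.p6, and capitals mark a kappaB form (GGGA and TTCC with 2 bases between them, on either strand, overlapping matches merged) or, in Cxcl10, also an interferon-stimulated response element core (GAAA and GAAA with 2 bases between them, on either strand).
Cxcl1 (chr5:90890995-90891244, plus strand): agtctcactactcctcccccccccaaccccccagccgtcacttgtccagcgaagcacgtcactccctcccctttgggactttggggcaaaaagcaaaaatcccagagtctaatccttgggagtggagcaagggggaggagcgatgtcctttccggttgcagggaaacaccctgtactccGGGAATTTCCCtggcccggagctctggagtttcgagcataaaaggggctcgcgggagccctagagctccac
Cxcl2 (chr5:90903649-90903898, plus strand): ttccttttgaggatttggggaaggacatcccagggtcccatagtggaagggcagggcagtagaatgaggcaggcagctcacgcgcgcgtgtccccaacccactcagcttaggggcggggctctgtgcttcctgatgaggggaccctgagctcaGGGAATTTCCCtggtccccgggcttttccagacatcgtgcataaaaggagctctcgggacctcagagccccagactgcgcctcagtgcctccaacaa
Cxcl10 (chr5:92348890-92349139, minus strand): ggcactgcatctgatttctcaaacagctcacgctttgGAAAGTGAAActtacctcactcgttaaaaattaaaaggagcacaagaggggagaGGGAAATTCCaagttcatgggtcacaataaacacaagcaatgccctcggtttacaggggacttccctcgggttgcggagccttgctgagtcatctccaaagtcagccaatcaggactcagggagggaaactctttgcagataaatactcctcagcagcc

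Cxcl1 and Cxcl2 carry the same kappaB stretch, whose first base lies 71 and 97 bases before the start. Of all 32851 promoters in the table, 1.21% hold the kappaB form and 2.98% the interferon response core in such a window. Among the 8 members with an entry, the kappaB form was found in Cxcl1, Cxcl2 and Cxcl10 and the interferon response core in Cxcl10, 213 bases before its start. The mineralocorticoid and glucocorticoid receptor palindrome, AGAACA and TGTTCT with 3 bases between them, was in no member's window and in 0.00913% of all promoters.

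After filters and doublet removal, 55630 of 76774 barcodes were kept, 7701 to 9933 per mouse, with 65101025 to 103296040 unique molecular identifiers (UMIs, 1 per captured RNA molecule) per mouse and a median of 4787 to 9148 UMIs per cell. Any pair of libraries shared 33 to 69 barcodes, at most 0.525% of the smaller one. Cells were sorted into types by marker genes of their clusters, without the use of any chemokine gene, and each type is named for the cells it resembles. Each of the 9 macrophage markers, the 13 endothelial markers and the 7 fibroblast markers was detected in the clusters of that name. Macrophage-like cells went from 132 to 155 per sham mouse to 418 to 692 per DOCA-salt mouse, injured tubule-like cells from 14 to 46 to 245 to 316, and fibroblast-like cells from 6 to 24 to 217 to 307. A cluster of 645 cells, 617 of them from DOCA-salt mouse 2, was left unnamed. Levels below are in CPM, the UMIs of a gene per 1000000 UMIs of the same mouse and cell type, as mean ± SD over 3 mice.

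Over all cells of the kidney, Cxcl2, Cx3cl1, Cxcl12 and Cxcl16 rose in DOCA-salt mice, and the other 5 genes did not pass the test. For Cxcl2 the sham mice gave 29.8, 44.4 and 21.9 CPM and the DOCA-salt mice 113, 132 and 161 CPM. Every DOCA-salt mouse was above every sham mouse, and the log2 fold change was 1.96 ± 0.24 (SE; adjusted p = 0.00156 in edgeR's quasi-likelihood test with Benjamini-Hochberg adjustment). Cx3cl1 went from 16.9, 20.4 and 20.2 CPM to 35.6, 44.0 and 56.8 CPM (log2 fold change 1.13 ± 0.16, adjusted p = 0.00321). Cxcl12 went from 19.8, 19.0 and 17.7 CPM to 27.1, 35.4 and 36.2 CPM (0.68 ± 0.12, adjusted p = 0.00629). The groups did not overlap for either gene. Cxcl16 went from 49.3, 35.0 and 56.7 CPM to 67.0, 114 and 94.7 CPM (0.84 ± 0.22, adjusted p = 0.0361). Its groups were nearest between sham 3 and DOCA-salt 1. Its call was lost without sham 1, DOCA-salt 2 or DOCA-salt 3 (adjusted p up to 0.103), without macrophage-like cells (0.0634) and without fibroblast-like cells (0.0543). Over all alternatives its adjusted p was 0.00313 to 0.103. Of all genes tested in whole kidney, 11.5% rose and 5.69% fell.

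Cxcl1 had 11.9, 20.3 and 13.3 CPM in sham mice and 19.7, 30.6 and 39.7 CPM in DOCA-salt mice, so that the groups overlapped (0.87 ± 0.26, adjusted p = 0.0574). Cxcl10 had 37.0, 60.5 and 34.9 CPM against 52.0, 65.7 and 82.6 CPM (0.48 ± 0.22, adjusted p = 0.184). Both sets overlap because sham mouse 2 was the highest sham mouse. Cxcl9 (0.55, adjusted p = 0.43), Cxcr4 (0.81, adjusted p = 0.156) and Cxcr6 (0.39, adjusted p = 0.224) were rare transcripts with at most 7.59 CPM in any mouse. Cxcl1 was near the threshold and passed without sham 2 (adjusted p = 0.0141) or DOCA-salt 1 (0.0196), with library size alone (0.0381), in DESeq2 (0.0106), with low counts unfiltered (0.0318) and at a limit of 20% mitochondrial UMIs (0.023), in a range over all alternatives of 0.0106 to 0.197. Without sham 2, Cxcl10 (0.0136) and Cxcr4 (0.0152) passed as well. Over all alternatives Cxcl10 gave 0.0136 to 0.495 and Cxcr4 0.0152 to 0.615. In such sums over a whole organ, more cells of a type and more RNA per cell cannot be told apart, so each gene was next followed by cell type.

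**Figure D1:**
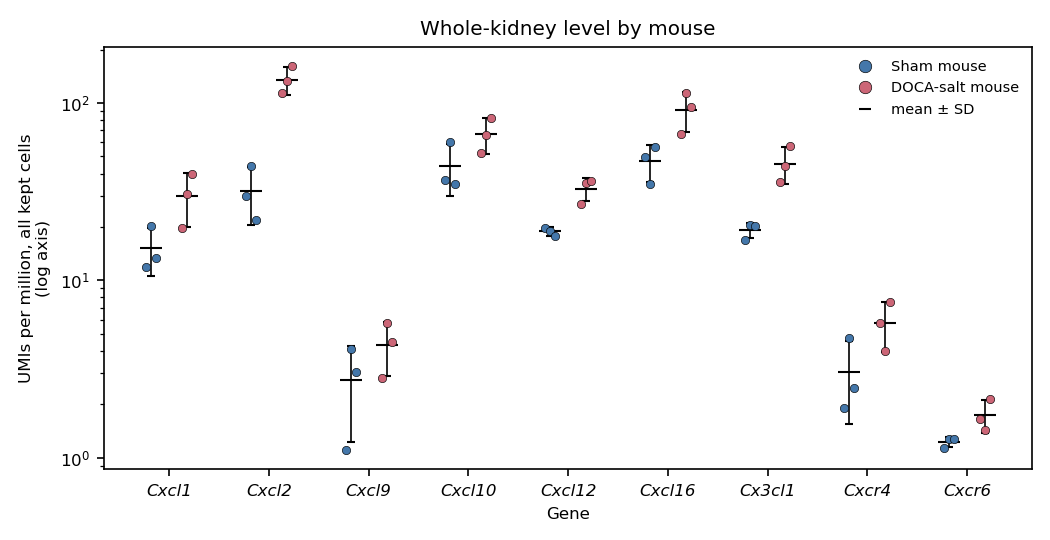
Level of each of the 9 genes over all kept cells, in CPM on a log axis, with 1 point per mouse (3 sham, 3 DOCA-salt) and bars at each group's mean ± SD. Groups are apart for Cxcl2, Cx3cl1, Cxcl12 and Cxcl16 and for Cxcr6, which stays below 2.2 CPM and did not pass the test, and overlap for Cxcl1, Cxcl9, Cxcl10 and Cxcr4.

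The genes differed in where they were counted. Among types with at least 10 cells in every mouse, Cxcl2 was highest in macrophage-like cells, 2.71 on the log2(CPM + 1) scale above monocyte-like cells and higher in 6 of 6 mice. Cxcl16 was also highest in macrophage-like cells (0.84 above dendritic-like cells), Cx3cl1 in thin limb-like cells (0.57 above endothelial-like cells) and Cxcr4 in monocyte-like cells (1.18 above B cell-like cells), each in 6 of 6 mice. For these 4 genes the exact sign-flip test gave p = 0.031, the smallest that 6 mice allow. For the other 5 genes the first and second type did not differ beyond their spread. Cxcl1 led in injured tubule-like before parietal epithelial-like cells (exact p = 0.219), and Cxcl9 in dendritic-like before macrophage-like cells (exact p = 0.156), with endothelial-like cells a further 4.83 lower. Cxcl10 led in macrophage-like before injured tubule-like cells (exact p = 0.125), and the latter did not differ beyond their spread from parietal epithelial-like cells (exact p = 0.688). This order turned between mice, since in sham 1 and sham 2 Cxcl10 was higher in injured tubule-like than in macrophage-like cells, and in DOCA-salt 2 and DOCA-salt 3 parietal epithelial-like cells (309 and 407 CPM) were above injured tubule-like cells (146 and 170 CPM). Cxcl12 led in parietal epithelial-like before endothelial-like cells (exact p = 0.406). The 2 types were apart in that order in the DOCA-salt mice (72.0 to 118 against 33.1 to 43.4 CPM), whereas endothelial-like cells were higher in sham 1 and sham 3. When clusters were named, the parietal epithelial-like cells scored 4.38 on their own marker list and 3.91 on that of podocytes. Cxcr6 led in an unnamed lymphoid cluster led by Xcl1, Ifng and Kcnq5, whose best marker list was that of NK cells, before T cell-like cells (exact p = 0.25). Below those lymphoid cells Cxcr6 dropped by 6.97 to the next type. Fibroblast-like cells are outside this order, since 2 sham mice gave fewer than 10 of them.

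**Figure D2:**
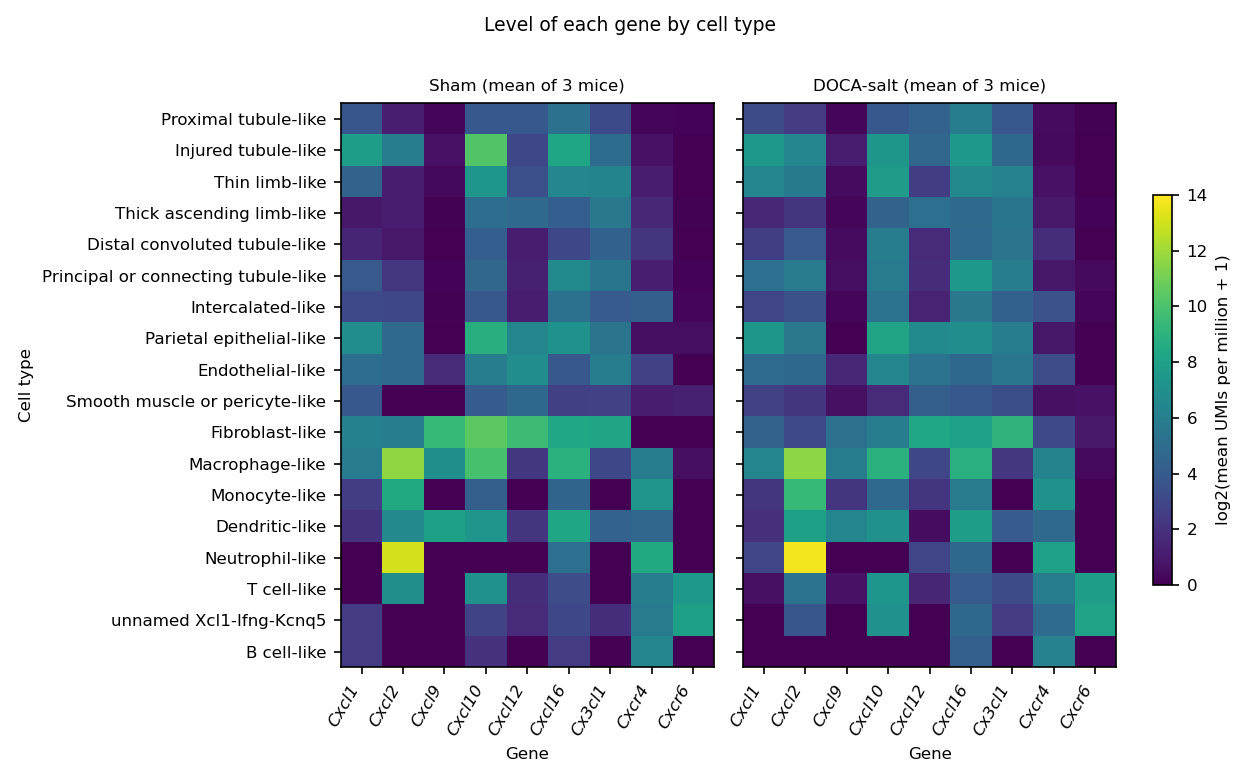
Mean level of each gene (columns) by cell type (rows) in sham and DOCA-salt mice, as log2(CPM + 1) in colour, with 3 mice per group. Cxcl2 is strongest in neutrophil-like and macrophage-like cells, Cxcr6 is strongest in 2 lymphoid groups, and Cx3cl1 is strong in fibroblast-like cells of DOCA-salt mice.

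Cxcl2, a neutrophil attractant, was mostly macrophage RNA in both groups, and its level per macrophage did not pass the test. Macrophage-like cells held 78.3% of the kidney's Cxcl2 UMIs in sham and 74.9% in DOCA-salt mice. Their level was 3063, 4663 and 2106 CPM in sham mice and 3495, 2908 and 2923 CPM in DOCA-salt mice, values that overlapped (log2 fold change -0.16 ± 0.23, adjusted p = 0.796). The share of these cells with a Cxcl2 UMI, after thinning to 1000 UMIs and leaving out shallower cells, was 50.6% ± 7.35 in sham and 47.2% ± 2.20 in DOCA-salt mice (exact permutation p = 0.6, n = 3 mice per group). Many cells of macrophage cluster I4 were left out by this. It had a median of 768 UMIs per cell, 15 sham and 266 DOCA-salt cells, and 1055 CPM of Cxcl2 in the latter. Of the 103 CPM by which Cxcl2 was higher in DOCA-salt kidneys, macrophage-like cells made up 77.0 CPM. Split by the mean level and the mean share of UMIs, their larger share gave 81.4 CPM and their level -4.45 CPM. Over all alternatives, the whole-kidney rise of Cxcl2 had an adjusted p of 9.104e-14 to 0.0124. Without macrophage-like cells, Cxcl2 was still higher in the rest of the kidney (2.21, adjusted p = 0.000571). In that rest, cycling immune cells, whose second-best marker list was that of macrophages, made up 7.71 CPM of the difference. Injured tubule-like cells made up 5.44 CPM and neutrophil-like cells 3.53 CPM. Principal or connecting tubule, proximal tubule and distal convoluted tubule-like cells made up 1.78, 1.29 and 0.43 CPM. Neutrophil-like cells, with 3 to 18 cells per mouse, held 81, 184 and 46 Cxcl2 UMIs in sham and 779, 314 and 238 in DOCA-salt mice, and were too few for a test.

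Outside the macrophages Cxcl2 rose in tubular cells. In principal or connecting tubule-like cells, the aldosterone-responsive end of the nephron, it went from 1.13, 3.24 and 6.57 CPM to 54.4, 57.8 and 49.5 CPM (log2 fold change 3.82 ± 0.33, adjusted p = 3.07e-05). Distal convoluted tubule-like cells went from 1.59, 1.13 and 0 CPM to 20.6, 12.4 and 9.28 CPM (3.90 ± 0.64, adjusted p = 0.000776). Both rises, with no overlap, passed under each alternative run for them. Of genes tested, 14.4% changed in principal or connecting tubule-like cells and 7.91% in distal convoluted tubule-like cells. Proximal tubule-like cells went from 2.00, 0.70 and 1.17 CPM to 3.99, 4.75 and 4.47 CPM (1.69 ± 0.30, adjusted p = 0.0142). There 7.02% of genes changed, and the call was lost without DOCA-salt 3 (adjusted p = 0.0589, range over alternatives 3.27e-06 to 0.0631). An unnamed cluster of few UMIs per cell, led by Camk1d, Cmss1 and Filip1l, also rose (1.58 ± 0.35, adjusted p = 0.00774, with 1.49% of its genes changed), but not without sham 1, sham 3 or DOCA-salt 3 (adjusted p up to 0.108) or in DESeq2 (0.139). In thin limb-like cells the values 1.65, 0.66 and 1.02 CPM stood against 4.23, 18.2 and 124 CPM (adjusted p = 0.0775), and 1 cell held 115 of the 208 UMIs of DOCA-salt 3.

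Free RNA can place macrophage transcripts into other droplets, so these cells were set beside smooth muscle or pericyte-like cells, which had medians of 3361 to 6729 UMIs per cell. Whether smooth muscle or pericyte-like cells make Cxcl2 themselves was not tested. At 1000 UMIs, the share of cells with a Cxcl2 UMI in them was 0% in all sham mice and 0.241% ± 0.0803 in DOCA-salt mice. In principal or connecting tubule-like cells, with medians of 8164 to 16396 UMIs, it was 0.35% ± 0.283 and 3.23% ± 0.953, without thinning 2.09% and 16.6%. Distal convoluted tubule-like cells had 0.101% ± 0.104 and 0.821% ± 0.125, and proximal tubule-like cells 0.15% ± 0.0606 and 0.507% ± 0.0828. Thinning kept 332 of 345, 387 of 400 and 443 of 467 principal or connecting tubule-like cells of sham mice and 233 of 245, 209 of 222 and 243 of 272 of DOCA-salt mice. None of these groups overlapped (exact permutation p = 0.1 each, the smallest for 3 against 3 mice). Single cells held up to 44 UMIs in principal or connecting tubule-like and up to 37 in distal convoluted tubule-like cells. In DOCA-salt mice 121 principal or connecting tubule-like cells held 528 Cxcl2 UMIs and 50 distal convoluted tubule-like cells held 122. The 10 highest cells held 48.1% and 66.4% of these UMIs. A macrophage marker was counted in 35.5% of these principal or connecting tubule-like cells, against 31.7% of those without Cxcl2. For distal convoluted tubule-like cells the shares were 60.0% and 42.5%. There, too, 542 proximal tubule-like cells held 561 and 59 cells of the cluster led by Camk1d held 63, so nearly all of these had 1 UMI. Whether the Cxcl2 rises exceed free RNA was not tested in any of these tubular cell types or in that cluster. The summed level of the 9 macrophage markers in principal or connecting tubule-like cells also went up, from 11.6 to 17.8 CPM to 32.2 to 63.6 CPM, with none of the markers at 0. In distal convoluted tubule-like cells it was 63.3 to 74.7 CPM and 72.6 to 83.5 CPM, and in proximal tubule-like cells 92.5 to 125 CPM and 136 to 142 CPM. The cluster led by Camk1d had 38.1 to 68.5 CPM and 101 to 203 CPM. Smooth muscle or pericyte-like cells had 161 to 185 CPM in sham and 197 to 211 CPM in DOCA-salt mice. The sum of the 8 injured tubule markers went up as well, from 836 to 1296 CPM to 2481 to 3796 CPM in principal or connecting tubule-like cells and from 123 to 199 CPM to 777 to 981 CPM in distal convoluted tubule-like cells, where only Krt20 was at 0. The part of either marker list in the Cxcl2 rises was not tested.

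Most UMIs of Cxcl1, the close relative of Cxcl2, lay in tubular cells. In sham mice 51.3% of its UMIs were in proximal tubule-like cells and 7.37% in injured tubule-like cells. In DOCA-salt mice these shares were 13.9% and 39.5%. Macrophage-like cells held 2.87% and 9.91%, at 47.8, 84.7 and 36.0 CPM in sham and 40.6, 103.5 and 101 CPM in DOCA-salt mice, which overlapped (0.49 ± 0.34, adjusted p = 0.51). Its level within injured tubule-like cells was 309, 157 and 227 CPM in sham mice and 161, 191 and 170 CPM in DOCA-salt mice, which overlapped (-0.29 ± 0.19, adjusted p = 0.381). Injured tubule-like cells made up 10.6 of the 14.9 CPM by which the DOCA-salt kidneys were higher, and their larger share of UMIs by itself gave 12.1 CPM. Macrophage-like cells made up 2.56 CPM. Principal or connecting tubule-like cells had 9.02, 25.4 and 7.11 CPM against 21.4, 38.7 and 39.4 CPM (1.22 ± 0.39, adjusted p = 0.0593).

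**Figure D3:**
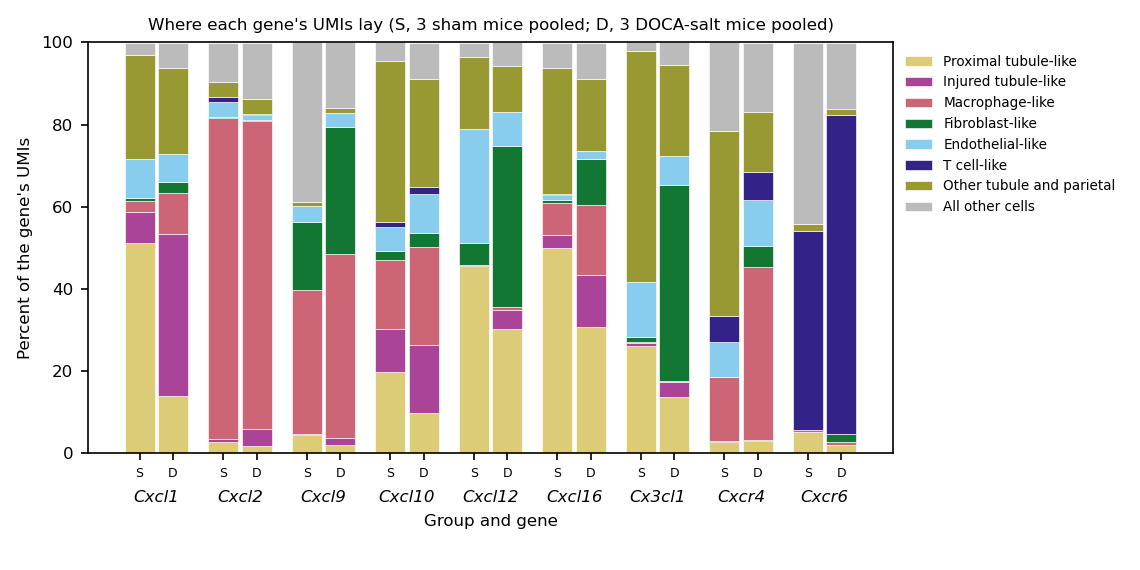
Share of each gene's kidney UMIs held by cell types, in percent, as stacked bars for sham and DOCA-salt mice (UMIs of 3 mice summed). Cxcl2 stays mostly in macrophage-like cells in both groups. For Cxcl1 the largest share moves from proximal to injured tubule-like cells, and for Cx3cl1 and Cxcl12 the share of fibroblast-like cells is larger in DOCA-salt mice.

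Cxcl10 fell in macrophage-like and injured tubule-like cells and rose in 4 other cell types. In macrophage-like cells it went from 830, 1174 and 895 CPM to 533, 410 and 508 CPM (log2 fold change -1.09 ± 0.17, adjusted p = 0.0016, with 4.53% of genes changed there). The groups did not overlap, and the share of these cells with a Cxcl10 UMI at 1000 UMIs went from 39.4% ± 2.20 to 22.5% ± 2.89 (exact permutation p = 0.1, n = 3 mice per group). Smooth muscle or pericyte-like cells had 0.61% and 0.433% by the same measure. In injured tubule-like cells Cxcl10 went from 1673, 1479 and 305 CPM to 183, 146 and 170 CPM (-2.66 ± 0.37, adjusted p = 7.89e-05, with 13.9% of genes changed). Here the share went from 35.2% ± 14.6 to 11.6% ± 0.822. The sham side of this comparison rests on 14, 22 and 46 cells, and 10 cells held 70.0% of its 1009 UMIs. Both falls passed under every alternative run for them, those without 1 mouse included. The macrophage marker sum of the injured tubule-like cells was also lower in DOCA-salt mice, 162 to 188 against 72.8 to 88.6 CPM. The injured tubule-like cells of the 2 groups also differed in the markers they were named by. The sum of the 8 injured tubule markers was 2558 to 2803 CPM in sham and 955 to 1095 CPM in DOCA-salt mice, and that of the 9 proximal tubule markers 3204 to 5080 CPM and 7209 to 7708 CPM. The part of these differences in any change within injured tubule-like cells was not tested.

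Macrophages of the 2 groups were not the same clusters. In sham mice 304 of them were in cluster I3, led by Mmp13, Ccl4, Ccl3, Ifnb1, Tnf and Il1b, which are genes of inflammatory activation. DOCA-salt macrophages were spread over I1 (554 cells, led by Fcgr4 and Ms4a7), I2 (366, Ccl8 and Pf4), I4 (266), I5 (244), I10 (139) and smaller clusters, and I3 held 73. Summed over mice, Cxcl10 was at 1057 CPM in sham and 671 CPM in DOCA-salt cells of I3, at 1023 and 645 CPM in I5, at 1370.0 and 385 CPM in I10 and at 568 and 497 CPM in I2. It was higher in DOCA-salt cells of I1 (362 and 569 CPM), I4 (0 and 113 CPM) and I13 (38.3 and 105 CPM). Each of these clusters other than I3 had 15 to 28 sham cells in all. In I3 alone, where a mouse gave 13 to 112 cells, the fall was -0.87 ± 0.38 and did not pass (adjusted p = 0.638, with 0.176% of genes changed). Cxcl2 was highest in I5, at 7438 CPM in 28 sham cells and 5609 CPM in DOCA-salt cells, and in I20, which was led by Retnla and Mmp12 and had 6850.0 CPM in 47 DOCA-salt cells.

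The 4 cell types in which Cxcl10 rose were intercalated, distal convoluted tubule, principal or connecting tubule and endothelial-like cells. Intercalated-like cells, which secrete acid or base, went from 16.6, 12.5 and 8.99 CPM to 34.3, 43.0 and 40.9 CPM (1.65 ± 0.20, adjusted p = 0.00135, with 6.01% of genes changed). In DOCA-salt mice 10 intercalated-like cells held 69.0% of these UMIs, and the share of cells with a UMI at 1000 UMIs overlapped between groups (1.23% ± 0.403 and 1.62% ± 0.415). The call was lost when clusters were made at Leiden resolution 2 (0.56, adjusted p = 0.501, range over alternatives 6.164e-17 to 0.501). Intercalated-like cells came from a cluster led by Slc26a4, with 166 to 225 cells per sham and 119 to 168 per DOCA-salt mouse, and a cluster led by Slc4a1, with 101 to 169 and 171 to 219. The part of this shift in the Cxcl10 rise was not tested. Distal convoluted tubule-like cells went from 31.8, 5.65 and 15.1 CPM to 73.9, 45.0 and 53.8 CPM (1.49 ± 0.32, adjusted p = 0.00629), and the call was lost without sham 3 (adjusted p = 0.0748, range 4.177e-10 to 0.157), in DESeq2 (0.157), at a limit of 20% mitochondrial UMIs (0.109) and with doublets kept (0.0512). Principal or connecting tubule-like cells went from 21.1, 34.3 and 15.3 CPM to 38.8, 63.8 and 58.7 CPM (1.15 ± 0.27, adjusted p = 0.0133), and the call was lost without sham 1, sham 3 or DOCA-salt 2 (adjusted p up to 0.0646) and when doublets were kept (0.262). Groups did not overlap in these 3 types. Endothelial-like cells went from 52.3, 53.4 and 64.8 CPM to 89.7, 111 and 67.2 CPM (0.66 ± 0.18, adjusted p = 0.0391, with 11.3% of genes changed), and the call was lost without sham 1, DOCA-salt 1 or DOCA-salt 2 (adjusted p up to 0.169) and at Leiden resolution 2 (0.0516). The macrophage marker sum also rose in intercalated-like cells, from 10.9 to 16.5 CPM to 23.6 to 36.2 CPM, and in principal or connecting tubule-like cells as given above. The injured tubule marker sum went up in principal or connecting tubule-like and distal convoluted tubule-like cells, as given beside Cxcl2, and the fibroblast marker sum in intercalated-like cells from 22.6 to 36.4 CPM to 65.1 to 84.5 CPM. The part of these markers in the Cxcl10 rises was not tested. Proximal tubule-like cells stayed outside this pattern, with 13.7 CPM ± 4.68 and 13.7 CPM ± 3.52.

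The whole-kidney difference of Cxcl10, 22.7 CPM, was the sum of opposing parts. Changes in the UMI shares of cell types added 68.7 CPM and changes of the level within types gave -46.0 CPM. In macrophage-like cells the parts were 18.7 and -10.1 CPM, in injured tubule-like cells 32.0 and -25.4 CPM and in fibroblast-like cells 18.9 and -17.3 CPM. The sham levels of the last 2 types rest on few cells. In sham mice 5 fibroblast-like cells held all 214 Cxcl10 UMIs of that type, and 10 injured tubule-like cells held 70.0% of theirs.

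Cxcl9, the other interferon-inducible ligand, was counted in few cells. In macrophage-like cells it went from 52.3, 146 and 172 CPM to 47.7, 64.0 and 63.7 CPM (-1.13 ± 0.29, adjusted p = 0.039). The groups overlapped through sham 1, and the call was lost without sham 2, sham 3, DOCA-salt 1 or DOCA-salt 3 (adjusted p up to 0.264), with library size alone (0.0523) and with doublets kept (0.582, range 3.792e-06 to 0.582). Of the macrophage clusters, I10 had the highest level, at 1265 CPM in 16 sham cells and 120 CPM in 139 DOCA-salt cells. I1 was at 108 CPM in its 554 DOCA-salt cells. Dendritic-like cells had 257, 256 and 232 CPM against 55.0, 159 and 36.3 CPM, from 3 to 7 positive cells per mouse, and the difference did not pass (-1.66 ± 0.38, adjusted p = 0.153). With the minimum lowered to 5 cells per mouse, a choice made after seeing the data, fibroblast-like cells could be tested. There Cxcl9 (-3.72 ± 0.87, adjusted p = 0.0151) and Cxcl10 (-4.30 ± 0.92, adjusted p = 0.00929) fell, with 5.31% of genes changed, but in sham 2 a single cell held all 95 Cxcl9 and all 197 Cxcl10 UMIs. The macrophage marker sum of the fibroblast-like cells was 1181 CPM in that mouse and 49.4 to 190 CPM in the other 5.

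**Figure D4:**
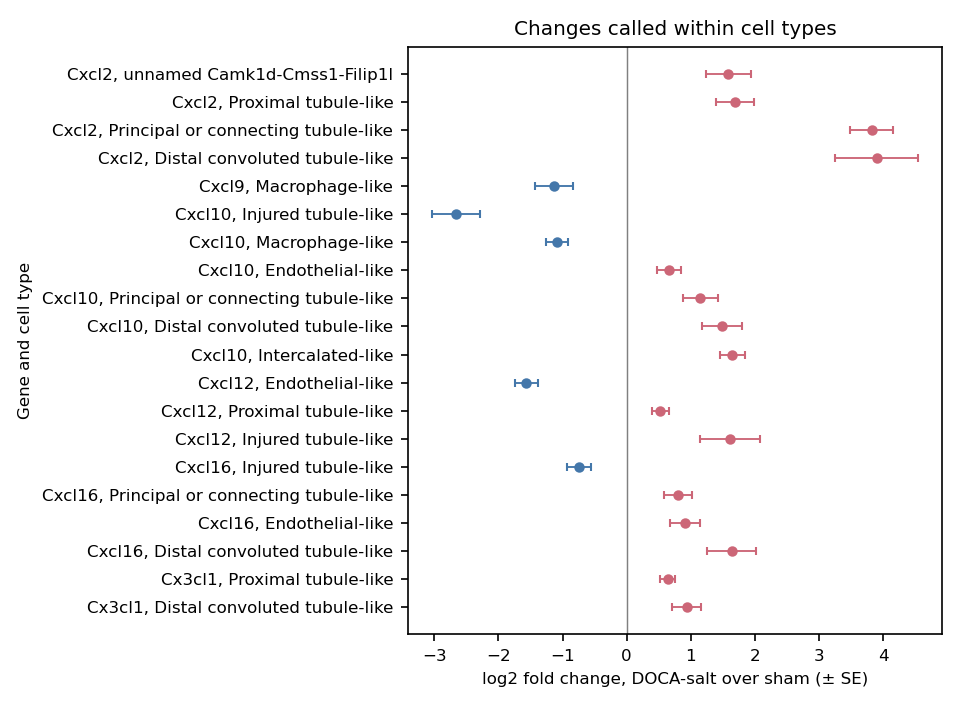
log2 fold change (DOCA-salt over sham) with its SE for each gene and cell type past the threshold of adjusted p = 0.05 in edgeR's quasi-likelihood test, in 8 cell types. The 5 falls are Cxcl9 and Cxcl10 in macrophage-like, Cxcl10 and Cxcl16 in injured tubule-like and Cxcl12 in endothelial-like cells, and the highest rises are those of Cxcl2 in distal tubular cells.

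Cxcl12 fell in endothelial-like cells while it rose over the whole kidney. In endothelial-like cells the sham mice had 140, 87.9 and 117 CPM and the DOCA-salt mice 39.3, 43.4 and 33.1 CPM (-1.56 ± 0.17, adjusted p = 0.000456). Every DOCA-salt mouse was below every sham mouse, and the fall passed under each of the 15 alternatives. The share of endothelial-like cells with a Cxcl12 UMI at 1000 UMIs went from 5.46% ± 1.01 to 2.35% ± 0.411, against 0.426% and 0.719% in macrophage-like cells. Endothelial-like cells fell into a cluster led by Plvap, a gene of fenestrated capillaries, and a cluster led by Cldn5 with Sox17, a gene of arterial endothelium. The Plvap cluster had 250 to 301 cells per sham mouse and 412 to 588 per DOCA-salt mouse, and Cxcl12 there was at most 11.3 CPM, too low for the test. No member was called in the Plvap cluster, in which 7.31% of genes changed. The Cldn5 cluster had 201 to 247 and 158 to 178 cells. Its Cxcl12 went from 204, 135 and 154 CPM to 83.2, 126 and 93.7 CPM (-0.73 ± 0.18, adjusted p = 0.0415, with 4.29% of genes changed). The fall within that cluster was smaller than over all endothelial-like cells, where the share of the Plvap cluster also differed between groups. Cxcl10 was called in neither cluster, with changes of 0.37 ± 0.20 in the Plvap and -0.08 ± 0.24 in the Cldn5 cluster. Cxcl16 was also called in neither, but in the Cldn5 cluster its groups were apart, at 7.94 to 8.38 CPM against 13.7 to 17.6 CPM (0.86 ± 0.25, adjusted p = 0.0887), and in the Plvap cluster its change was 0.27 ± 0.30.

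In the whole kidney, fibroblast-like cells made up 12.2 of the 14.04 CPM by which Cxcl12 was higher, and endothelial-like cells -2.53 CPM. Without fibroblast-like cells the whole-kidney change of Cxcl12 was 0.11 and did not pass (adjusted p = 0.474). The whole-kidney test of Cxcl12 gave 1.677e-05 to 0.474 over all alternatives, that one included. Per fibroblast the level was 1063, 891 and 362 CPM in sham mice, from 24, 6 and 9 cells, and 246, 386 and 342 CPM in DOCA-salt mice, from 217, 297 and 307 cells. At the minimum of 5 cells per mouse this was a fall (-1.27 ± 0.35, adjusted p = 0.0368). The markers of these cells differed as well, the 7 fibroblast markers with sums of 25160.0, 6944 and 14940.0 CPM in sham and 10310.0 to 11380.0 CPM in DOCA-salt mice and the 13 endothelial markers with 72.6, 414 and 115 CPM and 631 to 884 CPM, and the part of these differences in the fall was not tested. Injured tubule-like cells rose from 0, 12.3 and 8.93 CPM to 28.7, 19.3 and 23.3 CPM (1.61 ± 0.47, adjusted p = 0.0284), but not without sham 1, sham 3 or DOCA-salt 1 (adjusted p up to 0.107), at a limit of 20% mitochondrial UMIs (0.0919) or at Leiden resolution 2 (0.0519). Proximal tubule-like cells, which held 45.5% of sham Cxcl12 UMIs, rose from 13.3, 15.2 and 12.4 CPM to 22.6, 17.6 and 21.4 CPM (0.53 ± 0.13, adjusted p = 0.0498), and leaving out any mouse except sham 2 lost the call (adjusted p up to 0.182), as did size factors from DESeq2 (0.0555) and a limit of 20% mitochondrial UMIs (0.157). The summed fibroblast markers in proximal tubule-like cells went from 0.406 to 2.23 CPM to 11.8 to 17.9 CPM and in injured tubule-like cells from 0 to 3.57 CPM to 11.2 to 18.2 CPM. The summed endothelial markers went from 12.9 to 24.95 CPM to 30.1 to 45.8 CPM in proximal tubule-like cells. In injured tubule-like cells they overlapped, at 15.4 to 37.5 CPM and 31.8 to 45.5 CPM. The part of either marker list in the 2 rises was not tested.

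**Figure D5:**
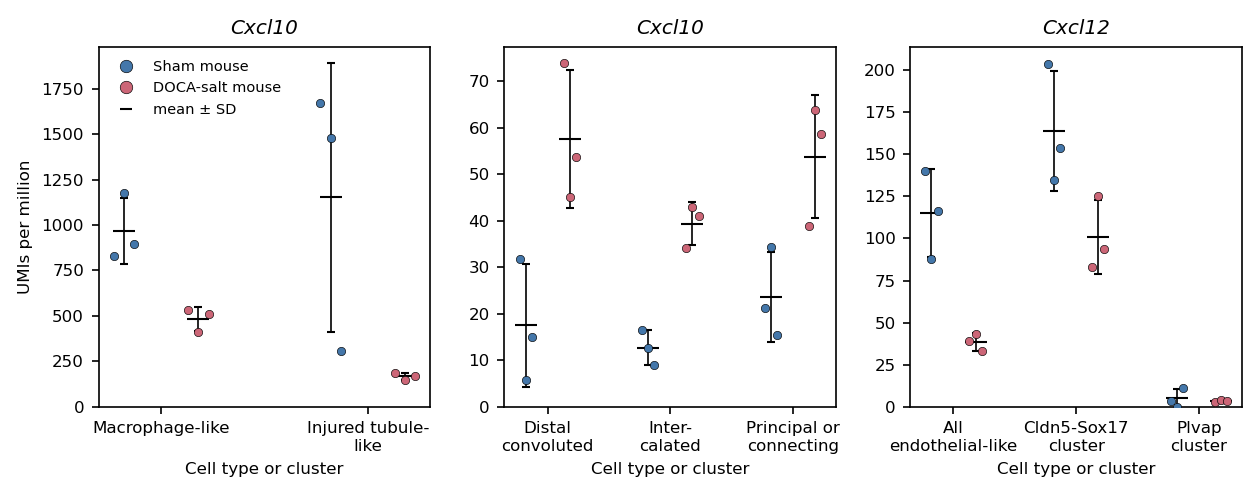
Cxcl10 (left) and Cxcl12 (right) in CPM by mouse in chosen cell types and endothelial clusters, 3 sham and 3 DOCA-salt points each, with bars at the mean ± SD. Cxcl10 is lower in DOCA-salt mice in macrophage and injured tubule-like cells and higher in distal convoluted tubule, intercalated and principal or connecting tubule-like cells, and Cxcl12 is lower in endothelial-like cells and in their Cldn5 cluster.

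Cx3cl1, whose membrane-bound form tethers cells that carry Cx3cr1, was spread over the epithelium and endothelium in sham mice, and in DOCA-salt mice fibroblast-like cells held the largest part of it. Proximal tubule, thin limb and thick ascending limb-like cells held 26.1%, 18.7% and 17.2% of its sham UMIs, and fibroblast-like cells 1.11%. In DOCA-salt mice fibroblast-like cells held 47.7%. They had 1168, 2111 and 2379 Cx3cl1 UMIs there, at 479, 502 and 673 CPM, in 169 of 217, 262 of 297 and 272 of 307 cells. The sham cells of this type, 24, 6 and 9 per mouse, held 5, 36 and 6 UMIs, 30 of the 36 in 1 cell, at 33.0, 746 and 98.8 CPM. The level per fibroblast did not pass the test (1.29 ± 0.57, adjusted p = 0.241). Of the 26.4 CPM by which Cx3cl1 was higher in DOCA-salt kidneys, 22.0 CPM came from fibroblast-like cells. Without them the change was 0.26 and did not pass (adjusted p = 0.125). The whole-kidney test of Cx3cl1 gave 3.229e-08 to 0.125 over all alternatives, that one included. Within other types, Cx3cl1 rose in proximal tubule-like cells from 7.76, 7.93 and 7.78 CPM to 12.5, 11.6 and 14.02 CPM (0.64 ± 0.12, adjusted p = 0.0157) and in distal convoluted tubule-like cells from 16.7, 22.6 and 18.8 CPM to 52.2, 34.0 and 35.7 CPM (0.93 ± 0.23, adjusted p = 0.0153). Groups did not overlap in either. The first call was lost without sham 1, sham 3, DOCA-salt 1 or DOCA-salt 3 (adjusted p up to 0.0876) and the second without sham 1, sham 3 or DOCA-salt 1 (adjusted p up to 0.0901) and at a limit of 20% mitochondrial UMIs (0.067). The fibroblast marker sum also went up in both types, from 0.406 to 2.23 CPM to 11.8 to 17.9 CPM in proximal and from 0 to 2.51 CPM to 7.82 to 15.3 CPM in distal convoluted tubule-like cells. So did the endothelial marker sum, from 12.9 to 24.95 CPM to 30.1 to 45.8 CPM and from 13.6 to 31.0 CPM to 34.3 to 60.2 CPM. The part of either marker list in these rises was not tested. In endothelial-like cells, a classical source of Cx3cl1, 52.0, 65.0 and 54.8 CPM stood against 47.6, 45.2 and 41.8 CPM (-0.34 ± 0.13, adjusted p = 0.123).

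Cxcl16, the ligand of Cxcr6 and a scavenger receptor on macrophages, was spread over many cell types. Proximal tubule-like cells held 49.8% of its sham and 30.7% of its DOCA-salt UMIs, at 38.5, 26.4 and 47.9 CPM against 44.7, 74.8 and 58.9 CPM, with overlap (0.60 ± 0.23, adjusted p = 0.158). Macrophage-like cells had 492, 420 and 552 CPM against 434, 570 and 423 CPM (-0.13 ± 0.17, adjusted p = 0.775). It fell in injured tubule-like cells from 398, 243 and 298 CPM to 151, 211 and 158 CPM (-0.74 ± 0.19, adjusted p = 0.012). Distal convoluted tubule-like cells rose from 9.53, 1.13 and 10.7 CPM to 21.3, 36.0 and 23.7 CPM (1.64 ± 0.38, adjusted p = 0.0116) and principal or connecting tubule-like cells from 116, 77.0 and 102 CPM to 124, 217 and 187 CPM (0.80 ± 0.21, adjusted p = 0.0282). Endothelial-like cells rose from 11.4, 11.6 and 16.2 CPM to 18.5, 30.8 and 23.3 CPM (0.90 ± 0.23, adjusted p = 0.0306). The groups were apart in all 4 types, but every call was lost without at least 1 mouse. The rises were lost without DOCA-salt 2 (adjusted p = 0.057, 0.114 and 0.128 in the order given), that of principal or connecting tubule-like cells also without sham 3 or DOCA-salt 3 (up to 0.0909) and that of endothelial-like cells without sham 1 or DOCA-salt 3 (up to 0.14). With doublets kept, the rises in distal convoluted tubule-like (0.63, adjusted p = 0.434) and principal or connecting tubule-like cells (adjusted p = 0.0639) did not pass, and at a limit of 20% mitochondrial UMIs the latter did not (0.0537). The fall was lost without sham 1, sham 3, DOCA-salt 1 or DOCA-salt 3 (adjusted p up to 0.0876). Marker sums of other cell types went up in the same cells. Those of macrophages and injured tubule did so in principal or connecting tubule-like cells and that of injured tubule in distal convoluted tubule-like cells, as given beside Cxcl2. The fibroblast marker sum went from 5.01 to 6.23 CPM to 22.2 to 36.2 CPM in endothelial-like cells and from 0.27 to 1.97 CPM to 10.8 to 29.0 CPM in principal or connecting tubule-like cells, and that in distal convoluted tubule-like cells is given beside Cx3cl1. The part of these markers in the Cxcl16 rises was not tested. Of the 44.8 CPM by which Cxcl16 was higher over the kidney, macrophage, injured tubule and fibroblast-like cells made up 12.2, 10.0 and 9.91 CPM. Zmynd15, which overlaps Cxcl16 on the opposite strand, had the cell type pattern nearest to it.

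Neither receptor passed the test in any cell type. Cxcr4, the receptor of Cxcl12, was at 172, 159 and 135 CPM in sham and 145, 159 and 121 CPM in DOCA-salt monocyte-like cells, where the groups overlapped. Macrophage-like cells held 15.6% of Cxcr4 UMIs in sham and 42.2% in DOCA-salt mice, at 60.8 CPM ± 30.9 and 75.7 CPM ± 27.0 (0.22 ± 0.32, adjusted p = 0.797). Intercalated-like cells held 35.0% and 11.3%, with sham 2 alone at 36.5 CPM and the other 5 mice at 4.87 to 16.3 CPM. In endothelial-like cells, next to the fall of its ligand, Cxcr4 had 5.96, 5.82 and 5.01 CPM in sham mice and 9.18, 8.84 and 9.27 CPM in DOCA-salt mice, apart but short of the threshold (0.71 ± 0.22, adjusted p = 0.0635). Cxcr6, the receptor of Cxcl16, was in T cell-like cells at 201, 135 and 190 CPM in sham mice and 231, 233 and 191 CPM in DOCA-salt mice (0.22 ± 0.23, adjusted p = 0.845). At 1000 UMIs, 15.7% ± 2.05 and 18.7% ± 2.66 of T cell-like cells had a Cxcr6 UMI (exact permutation p = 0.2, n = 3 mice per group), against 0.0195% and 0.0117% of proximal tubule-like cells. The unnamed cluster led by Xcl1 held 41.5% of Cxcr6 UMIs in sham and 14.4% in DOCA-salt mice, and its level overlapped between the groups (252 CPM ± 61.1 and 270.0 CPM ± 101). T cell-like cells numbered 47 to 73 per sham mouse and 99 to 137 per DOCA-salt mouse.

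In all, 82 pairs of a gene and a cell type could be tested in 17 types, and 20 passed, 15 of them rises and 5 falls. Over the 18 types fitted, 5.54% of all gene tests passed, 3.10% as rises and 2.44% as falls, and the 20 calls lay in 8 types, in which 1.49% to 14.4% of genes changed. Among types with at least 10 cells in every mouse, the 2 with most UMIs of a gene were compared for each of the 9 genes in a joint model with the mouse as a block. Fibroblast-like cells, which held more UMIs of Cx3cl1 than either type compared and more of Cxcl12 than endothelial-like cells, could not enter it. Cxcl10 fell by 1.40 ± 0.29 more on the log2 scale in injured tubule-like than in macrophage-like cells (adjusted p = 0.00069, with 9.12% of genes past the test in that model). The sham mice gave 14, 22 and 46 injured tubule-like cells for this difference. The change of Cxcl12 in endothelial-like cells was 2.09 ± 0.20 lower than in proximal tubule-like cells (-2.09, adjusted p = 9.63e-06, 12.1% of genes). The share of the Plvap cluster among endothelial-like cells also differed between groups, and within the Cldn5 cluster the change was -0.73 ± 0.18. The part of the cluster shares in the difference was not tested. For Cx3cl1 the change in thick ascending limb-like cells minus that in proximal tubule-like cells was -0.82 ± 0.13 (adjusted p = 0.00107, 4.44% of genes). For Cxcl16 the change in macrophage-like minus proximal tubule-like cells was -0.71 ± 0.13 (adjusted p = 1.16e-05, 5.39% of genes), which was not past the threshold without the mouse block (adjusted p = 0.36). The other 5 differences did not pass, with Cxcl2 at 0.88 between injured tubule and macrophage-like cells (adjusted p = 0.0986) and Cxcr4 at -0.80 between intercalated and macrophage-like cells (adjusted p = 0.0551).

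The genes with the most similar pattern were sought over 38 points, the means of 19 cell types in each group, among 12971 genes, and the correlations are given as a description. Next to Cxcl2 stood Cd14, a co-receptor for bacterial lipopolysaccharide (Pearson's r = 0.909), Lst1 (0.881) and Tlr2 (0.869). Cxcl1 was nearest to Vcam1, a leukocyte adhesion molecule also used as a marker of injured tubule (0.840), Cp (0.827) and Tmem176b (0.807). Cxcl10 was nearest to Ifit2, an interferon-induced gene (0.807), and Cxcl9 to Slamf9 (0.938). Cxcl12 was nearest to Bmp4 (0.879), Cx3cl1 to Phldb1 (0.911), Cxcl16 to Zmynd15 (0.805), Cxcr4 to Snx20 (0.922) and Ptprc, the pan-leukocyte gene (0.921). Cxcr6 was nearest to Gm47015 (0.995) and to the T and NK cell gene Cd96 (0.993). The points of 1 group share libraries.

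Of 19 other genes of the CXC and CX3C system, 15 were tested in whole kidney, and 8 were higher and none lower in DOCA-salt mice, where 11.5% of all genes were higher and 5.69% lower, with a median log2 fold change of 0.98 against -0.02 over all genes. The list was chosen with earlier results of these data known, so these counts are a description. In whole-kidney sums, more cells of a type and more RNA per cell cannot be told apart. Among ligands, Cxcl14 was higher by 5.81, Cxcl5 by 3.75, Cxcl3 by 3.05, Pf4 by 2.20 and Cxcl17 by 1.65. Among receptors, the atypical receptor Ackr3, which clears Cxcl12, was higher by 0.98 and Cx3cr1, the receptor of Cx3cl1, by 1.21, and of the proteases that shed Cx3cl1 and Cxcl16, Adam17 was higher by 0.47. Ackr3 also rose in proximal tubule-like (1.40), distal convoluted tubule-like (1.57), thin limb-like (1.11), smooth muscle or pericyte-like (1.13) and intercalated-like cells (0.97). Cxcl17 rose in principal or connecting tubule-like (5.30), distal convoluted tubule-like (4.87) and intercalated-like cells (2.98), Cxcl14 (6.25) and Pf4 (2.34) in proximal tubule-like cells and the protease Adam10 in principal or connecting tubule-like cells (1.04). Cx3cr1 rose in macrophage-like cells (0.64 ± 0.15, adjusted p = 0.0185) and fell in principal or connecting tubule-like (-1.14) and smooth muscle or pericyte-like cells (-1.59). Dpp4, a protease that cleaves chemokines, rose in injured tubule-like cells (1.02) and fell in parietal epithelial-like cells (-1.20). Pf4 was also a leading gene of macrophage clusters I2 and I5. The macrophage and fibroblast marker sums of proximal tubule-like cells went up, as given beside Cxcl2 and Cxcl12. The part of markers of other cell types in the changes of these other genes was not tested.

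Genes of the signals known to induce these ligands were read beside them, in lists also chosen with earlier results of these data known. Of 18 interferon-stimulated genes, 17 were tested in macrophage-like cells, where Cxcl10 fell. Ifit1 (-1.25), Oasl2 (-1.12), Rsad2 (-0.95) and Ifit2 (-0.93) fell there, and Irf7 rose (1.33), with a median of -0.16 against 0.01 over all genes, of which 2.06% fell and 2.47% rose. In injured tubule-like cells 13 were tested, of which Cd274 (-3.83), Gbp2 (-2.53), Ifi47 (-1.67) and Igtp (-1.45) fell and Ifit3 rose (2.56), with a median of -0.03 against 0.03 over all genes, of which 7.92% fell and 5.94% rose. In the types where Cxcl10 rose, the list went both ways. In intercalated-like cells 7 were tested, of which Irf1 fell (-1.11) and none rose, with a median of -0.23, where 2.84% of all genes fell and 3.16% rose. In principal or connecting tubule-like cells 15 were tested, Ifit1 (1.30) and Ifit2 (1.15) rose and Irf1 fell (-0.41), with a median of -0.13. In distal convoluted tubule-like cells Isg15 alone of 9 rose (1.87, median 0.18), and in endothelial-like cells Ifi44 (0.98) and Oasl2 (0.51) of 17 rose (median 0.21), with no falls in either. Of all genes in endothelial-like cells 6.68% rose and 4.60% fell. In whole kidney 8 of the 18 were higher and none lower, beside the 11.5% and 5.69% of all genes given above. There, too, more cells of a type and more RNA per cell cannot be told apart. Of 13 genes of NF-kappaB feedback and targets, 10 were tested in injured tubule-like cells, and 9 fell, among them the inhibitor Nfkbia (-1.55) and the subunit Rela (-1.26), with a median of -1.02 against 0.03 over all genes, of which 7.92% fell. In principal or connecting tubule-like cells, where Cxcl2 and 8.05% of all genes rose and 6.35% fell, 11 were tested, and 5 rose (Vcam1 by 3.28, Tnf by 2.89, Icam1 by 0.87, Nfkbiz by 0.61 and Nfkb1 by 0.43) and none fell. In macrophage-like cells 13 were tested, Tnf (-1.27) and Il1b (-0.78) fell and Vcam1 rose (1.01). In intercalated-like cells, with 10 tested, Relb (-0.92) and Rela (-0.51) fell and Vcam1 rose (3.99). Immediate early genes, which cell dissociation also induces, differed in the same cells. Of 18, 17 were tested in injured tubule-like cells and 8 fell, from Ier3 (-1.50) to Klf6 (-0.71), and Socs3 rose (0.79). In distal convoluted tubule-like cells, where 4.83% of all genes rose and 3.08% fell, 7 rose, Klf6 (1.46) and Atf3 (1.36) the most, and Ier3 fell (-0.91). In intercalated-like cells 4 of 17 fell, from Dnajb1 (-0.95) to Atf3 (-0.61), and none rose. In endothelial-like cells Egr1 (-0.83) and Ier2 (-0.51) of 18 fell, and in macrophage-like cells Ier3 (0.93) and Socs3 (0.85) of 18 rose and Dnajb1 fell (-1.32). In principal or connecting tubule-like cells Hspa1b alone rose (1.13) and none fell. The part of dissociation in the chemokine changes was not tested.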

How the data were processed

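Single-cell RNA-seq libraries of 3 sham and 3 DOCA-salt mice were analysed. The authors deposited raw UMI counts per gene and barcode, not normalized, made with Cell Ranger (9.0.0 by the submitters' processing notes, an earlier release by the file headers) on GRCm39, for barcodes called as cells. The annotation release is not given in the sources used here.

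Following the study's own limits, barcodes were dropped below 170 genes or 500 UMIs and above 50% mitochondrial or 5% haemoglobin UMIs. Doublets (4931 of 60561) were removed by Scrublet rank (scanpy 1.11.5), 0.8% per 1000 barcodes. The 2000 most variable genes, without chemokine, receptor and listed genes, 30 components, 15 neighbours and the Leiden method (igraph 0.11.9) at resolution 1 gave clusters, with immune cells clustered again. Clusters were named by the marker list highest in them. They stayed unnamed if too few of its markers were detected, another list had more markers among the leading genes, or no list stood out. Few UMIs per cell without a marker among the leading genes also left a cluster unnamed. So did over 90% of cells from 1 library, a choice made after seeing the data. The unnamed cluster led by Camk1d scored highest for proximal tubule and that led by Xcl1 for NK cells.

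UMIs were summed per mouse over all cells and per type with at least 10 cells in each mouse, and tested with edgeR 4.0.16 (R 4.3.3): its filter on low counts, TMM, quasi-likelihood F test and Benjamini-Hochberg adjustment over all genes of a fit, threshold 0.05. The SE is the log2 change over the square root of F. The 2 types with most UMIs of a gene, among those with at least 10 cells in each mouse, were compared in a joint model with the mouse as a block. CPM values are unscaled sums. Shares of cells with a UMI are expected shares once each cell is thinned to 1000 UMIs, leaving out shallower cells, tested by 2-sided exact permutation. Orders used 2-sided exact sign-flip tests on log2(CPM + 1). The parts of a whole-kidney difference are the change of a type's UMI share times its mean level and the reverse.

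All 9 genes were named in the text, with the nearest genes by pattern (at least 20 CPM in 1 type) and 4 lists. The members and lists were chosen with earlier results of these data known. Mice were separate animals and no pair of libraries was identical within counting noise. Equal mouse numbers did not pair them, since deviations from the group means correlated at -0.10, -0.77 and -0.24. Counting intervals would cover counting error only and are not given beside replicate spread. On simulated counts, tested in the whole-kidney fit, 67 of 100 genes changed 2-fold and all 100 changed 4-fold were recovered. The changed genes were drawn above a minimum expected count in the smallest library, and all genes had the same fixed spread. These rates therefore do not cover rarer genes or the fits of single cell types.

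Results were recomputed with DESeq2 1.42.0, with size factors from DESeq2, with plain library sizes, with low counts unfiltered, without each mouse in turn, with the mouse number as a block, with a mitochondrial limit of 20%, with doublets kept, Leiden resolution 2, cells with their own markers only, thinning to 500 UMIs, pseudocounts of 0.1 and 5, and no mouse block in the joint model. Whole kidney without macrophages, fibroblasts or the cluster of 1 library, fibroblasts at 5 cells per mouse, and single clusters were added after seeing the data. Promoter windows came from RefSeq on GRCm38.p6 and gene positions from GENCODE on GRCm39, and the 2 builds were never mixed.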

Additional observations from a re-analysis of the deposited data

Results flagged for a closer look

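In 4 cases a gene changed differently in the 2 cell types compared, by the test of the difference itself. These were the types with most of its UMIs among those with at least 10 cells in every mouse, so that fibroblast-like cells, which held more Cx3cl1 UMIs than both and more Cxcl12 UMIs than endothelial-like cells, were not among them. The change of Cxcl10 in injured tubule-like minus macrophage-like cells was -1.40 on the log2 scale, where the sham mice gave 14, 22 and 46 injured tubule-like cells. For Cxcl12, the change in endothelial-like minus proximal tubule-like cells was -2.09. The shares of the 2 endothelial clusters also differed between groups, and within the Cldn5 cluster the change of Cxcl12 was -0.73. For Cxcl16, the change in macrophage-like minus proximal tubule-like cells was -0.71, and for Cx3cl1 that in thick ascending limb-like minus proximal tubule-like cells was -0.82. The Cxcl16 difference rests on the mouse block, without which the adjusted p was 0.36. The other 3 also passed without it, Cxcl10 (adjusted p = 0.0466) and Cx3cl1 (0.0427) near the threshold and Cxcl12 at 0.000166.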

How the results depend on the processing

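No whole-kidney result, no call within a cell type and no difference between 2 cell types changed direction. Pairs of a gene and a cell type that were not called were not compared by direction. Within single clusters the called Cxcl10 rise of endothelial-like cells was -0.08 in the Cldn5 cluster (adjusted p = 0.922), and some values that were not called changed sign. Of the values of single genes under alternatives, 362 stayed on their side of the threshold, 76 lost and 9 gained a call. In whole kidney 4 of the 9 genes were called, and 3 to 7 without 1 mouse, 7 without sham 2. Without fibroblast-like cells 1 was called, Cxcl2. Within cell types 20 calls became 36 without the filter on low counts and 13 with the replicate block, and 12 to 24 without 1 mouse, 12 without sham 3 and 13 without DOCA-salt 3. The mouse numbers did not pair the mice, so the fit with the mouse number as a block is given only as these counts (4 in whole kidney, where Cxcl16 lost and Cxcl1 gained a call). The first-ranked type was the same for 9 of 9 genes at pseudocounts of 0.1 and 5. Depth limits Cxcr6, Cxcr4 and Cxcl9, and cell number limits fibroblast, neutrophil and sham injured tubule-like cells.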
